A study of Homo sapiens with 21 samples.

Results

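HEY cells, an established human ovarian cancer cell line, were compared 48 h after transfection with mir-429 or with a synthetic control miRNA. The arrays were chosen by their titles, which name the transfected RNA and the time, and gave 3 mir-429 and 3 control arrays of the 21 arrays of the series. Both arms were the same line, grown in RPMI-1640 with 10% FBS and transfected with Lipofectamine 2000, and they differed by label only in the small RNA. The series also holds both arms at 24 and at 144 h and untransfected cells at 0 h, for 7 groups of 3 arrays. The labels call the replicates biological without saying how they were grown, so a p-value here speaks to the spread between these arrays, which may be technical. The form in which mir-429 was supplied is not given in the sources used here.

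MicroRNAs guide a protein complex to messenger RNAs by pairing through a short stretch near their 5′ end, the seed, and lower the level or the translation of those messengers. The miR-200 family, to which miR-429 belongs, is known in epithelial tumours for holding down ZEB1 and ZEB2. These repressors bind E-box motifs in promoters of epithelial genes and take part in the epithelial to mesenchymal transition (EMT), in which cells lose junctions and polarity and gain motility and matrix.

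The mature sequences of the family show which member was given and what it shares with the others. They are from RefSeq, assembly GRCh38.p14, 5′ to 3′, with the seed (bases 2 to 8) in capitals.
hsa-miR-429: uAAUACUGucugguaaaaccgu
hsa-miR-200b-3p: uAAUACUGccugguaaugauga
hsa-miR-200c-3p: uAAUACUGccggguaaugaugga
hsa-miR-200a-3p: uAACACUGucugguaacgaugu
hsa-miR-141-3p: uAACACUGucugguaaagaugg

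The seed of miR-429, AAUACUG, was shared by 3 members. The other 2 carry AACACUG, which differs by U4C, counted from 1 at the 5′ end of the mature miR-429. The mature miR-429 is encoded at chr1:1169055-1169076, on the plus strand, in MIR429.

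Values are log2 expression per probe set, so that a difference of 1 is a 2-fold change. Of the markers of ovarian carcinoma, the lineage factor PAX8 read 10.70 to 10.999 over the 6 arrays and WT1 read 9.21 to 9.63, against array medians of 4.14 to 4.21. MUC16, MSLN, EPCAM and KRT19 lay below the median of every array. Of the markers of other cell types, 14 of 17 leukocyte, 5 of 19 endothelial and 7 of 12 fibroblast genes lay below the median on all 6 arrays, among them PTPRC, VWF, PDGFRA and COL1A2.

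All 6 arrays had little 5′ signal of the control transcripts GAPDH and ACTB. Averaged over both, the 3′ minus 5′ signal was 7.83 ± 0.62 (SD, n = 3) for the control arm and 8.55 ± 0.15 for the mir-429 arm, against 2.54 to 4.43 on the other 15 arrays of the series. The arms differed by 0.73 (exact permutation p = 0.2, two-sided; 0.1 is the smallest that 3 against 3 allows), and their ranges overlapped (7.23 to 8.47 and 8.45 to 8.73). For GAPDH alone the 3′ minus 5′ signal was 7.01 ± 0.53 (SD) for the control arm and 7.88 ± 0.26 for the mir-429 arm. Every mir-429 array lay above every control array in this GAPDH signal, while for ACTB alone the arms overlapped. The probe sets of a gene are therefore set beside each other below. Differences are mir-429 minus control with the standard error of a limma fit to these 6 arrays.

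The comparison asked which messengers differed at 48 h between cells given mir-429 and cells given the control miRNA. Messengers of the ZEB repressors, of fibronectin and lysyl oxidase and of 4 CXC chemokines fell. Those of the desmosome protein DSP, the tight junction scaffold TJP1 and the epithelial splicing protein ESRP1 rose. The TJP1 call, unlike those of DSP and ESRP1, was lost with the 3′ minus 5′ signal as a covariate. Of 12050 genes tested, 488 were higher (4.05%) and 570 lower (4.73%) at an adjusted p below 0.05, 1058 in all (8.78%). Among them 160 were at least 2-fold higher (1.33%) and 207 at least 2-fold lower (1.72%). All 1058 had arms that did not overlap, as did 3594 of all genes tested (29.8%). The median difference of all genes tested was 0.00033. The count was 157 with the 3′ minus 5′ signal as a covariate, and between 415 and 902 when 1 array was left out. That covariate differed in mean between the arms and leaves fewer residual degrees of freedom. A call can therefore be lost with it whether or not array quality made the difference, which was not tested.

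**Figure D1:**
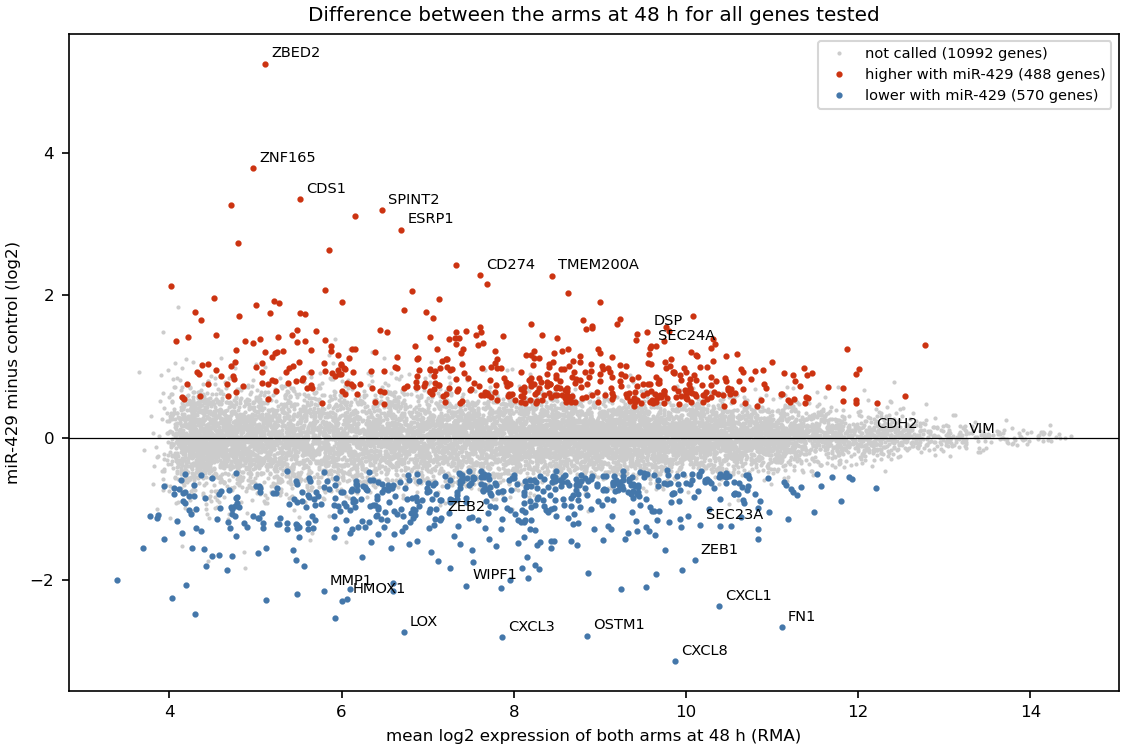
Difference between mir-429 and control arrays at 48 h (log2, vertical axis) against the mean log2 expression of both arms (horizontal axis), 1 point per gene, for the 12050 genes tested; red points are the 488 higher genes, blue points the 570 lower genes and grey points the 10992 not called. ZBED2 at 5.26 and CXCL8 at -3.13 are the highest and lowest points, and the bright genes VIM and CDH2 lie at -0.02 and 0.05.

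Of 71 tested targets of the miR-200 family described before, 21 were lower (29.6%) and 3 higher (4.23%), with a median of -0.27, against 4.73% lower and 4.05% higher over all genes tested. ZEB1 read 10.91, 11.16 and 10.79 in control arrays and 9.30, 9.14 and 9.28 in mir-429 arrays. ZEB2 read 7.77, 7.79 and 7.59 in control arrays and 6.76, 6.44 and 6.58 in mir-429 arrays. The 2 arms did not overlap for either repressor, and the falls were 1.72 ± 0.14 (adjusted p = 0.00109) and 1.12 ± 0.13 (adjusted p = 0.00426). Both stayed above the array medians in the mir-429 arm.

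Of 9 tested matrix and adhesion targets, 4 fell and 1 rose. LOX, which encodes lysyl oxidase, the enzyme that cross-links collagen and elastin, read 7.999, 8.19 and 8.08 in control arrays and 5.25, 5.38 and 5.44 in mir-429 arrays (-2.73 ± 0.12, adjusted p = 0.00013). Its second probe set was at -0.63 ± 0.27 and did not pass the test (adjusted p = 0.229), and the mean of both was -1.30. FN1, the gene of the matrix glycoprotein fibronectin, read 12.42, 12.44 and 12.48 in control arrays and 9.93, 9.54 and 9.87 in mir-429 arrays (-2.66 ± 0.14, adjusted p = 0.000223). CRTAP, part of the complex that hydroxylates prolines of collagen, read 10.51, 10.45 and 10.87 in control arrays and 8.67, 8.68 and 8.75 in mir-429 arrays (-1.91 ± 0.14, adjusted p = 0.000914). In the probe sets that stand for these genes every mir-429 array lay more than 1 log2 unit below every control array. TIMP2, a metalloprotease inhibitor, also fell, with a difference of -0.58 ± 0.12, and the adhesion phosphatase PTPRD rose by 1.09 ± 0.14.

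Among the 14 actin and cytoskeleton targets, 6 fell and none rose. WIPF1, a partner of the actin nucleation factor WASP, read 8.41, 8.58 and 8.46 in control arrays and 6.27, 6.47 and 6.49 in mir-429 arrays (-2.08 ± 0.12, adjusted p = 0.000326). CFL2, an actin-severing cofilin, read 10.06, 10.56 and 10.00 in control arrays and 9.33, 9.14 and 9.07 in mir-429 arrays (-1.03 ± 0.18, adjusted p = 0.0157). The arms were apart for both, with a wider spread among the controls of CFL2. The phosphatase PPM1F (-1.18), the actin-binding kinase substrate MARCKS (-0.70), the kinesin KIF13A (-0.62) and the membrane linker moesin (MSN, -0.51) also fell. CFL2 lost its call without mir-429 replicate 2 or 3, and MARCKS, KIF13A and MSN without most single arrays.

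Of 23 signalling targets, 4 fell and 2 rose. The falls were in ARHGAP19, a GTPase activating protein (-1.15), LFNG, which modifies Notch receptors (-1.06), PLCG1, a phospholipase downstream of growth factor receptors (-0.96), and PRKACB, a catalytic subunit of protein kinase A (-0.70). The rises were in IRS1, the insulin receptor substrate (0.86 ± 0.11), and in the ligand TGFB2 (0.99 ± 0.18). SEC23A, a coat protein of vesicles that leave the endoplasmic reticulum, read 10.74, 11.08 and 10.51 in control arrays and 9.76, 9.45 and 9.43 in mir-429 arrays (-1.23 ± 0.18, adjusted p = 0.00827). The chromatin protein HMGB3 fell by 0.80 ± 0.16. The clathrin adaptor subunit AP1S2 is counted as lower by its chosen probe set (-1.45 ± 0.26), but another of its probe sets was called higher. Of 14 chromatin and transcription targets 2 fell, the GATA cofactor ZFPM2 (-1.09) and TCF4, a basic helix-loop-helix factor (-0.74). AP1S2, HMGB3, PLCG1, PRKACB, TCF4, TGFB2 and, among the matrix targets, TIMP2 lost their calls without 1 or more single arrays. Over the whole list 11 to 19 targets were called lower when 1 array was left out, and 6 were lower with the 3′ minus 5′ covariate.

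**Figure D2:**
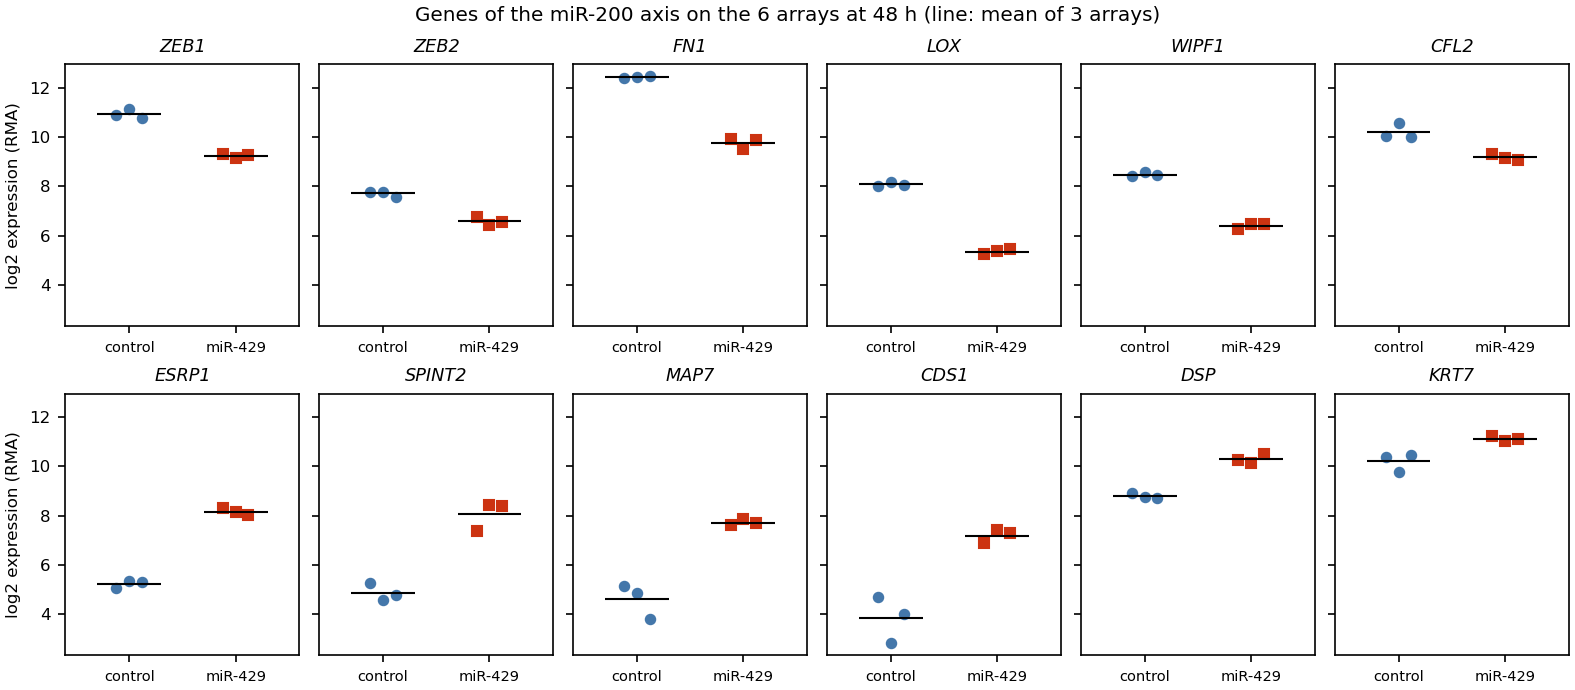
Log2 expression of 12 genes of the miR-200 axis on the 3 control arrays (circles) and 3 mir-429 arrays (squares) at 48 h; the line is the mean of 3 arrays. ZEB1, ZEB2, FN1, LOX, WIPF1 and CFL2 in the upper row are lower on every mir-429 array than on any control array, and ESRP1, SPINT2, MAP7, CDS1, DSP and KRT7 in the lower row are higher on every mir-429 array.

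Of 40 tested epithelial genes, 14 were higher (35%, against 4.05% of all genes tested) and 2 lower, with a median of 0.46. Over all 72 members with a probe set, tested or not, the median was 0.20. A member that was dim in control cells passed the filter through the mir-429 arrays, so the first median describes only the genes that passed. ESRP1, an RNA-binding protein that sets epithelial splicing, read 5.08, 5.33 and 5.30 in control arrays and 8.29, 8.16 and 8.02 in mir-429 arrays (2.92 ± 0.13, adjusted p = 0.000136). SPINT2, a membrane-bound inhibitor of serine proteases, read 5.28, 4.56 and 4.77 in control arrays and 7.38, 8.43 and 8.39 in mir-429 arrays (3.20 ± 0.32, adjusted p = 0.00232). MAP7, which binds microtubules, read 5.14, 4.87 and 3.80 in control arrays and 7.60, 7.86 and 7.71 in mir-429 arrays (3.12 ± 0.32, adjusted p = 0.00277). For all 3 genes the arms were separated by more than 2 log2 units between the nearest arrays. CDS1, a synthase of the phospholipid precursor CDP-diacylglycerol, read 4.70, 2.82 and 3.99 in control arrays and 6.88, 7.41 and 7.28 in mir-429 arrays. Its control mean lay below the array medians, and with those arrays raised to their median it was at least 2.83 higher.

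Desmosomes, the spot junctions that anchor keratin, had 3 of 6 tested members higher (50%, against 4.05% of all genes tested) and none lower. Their median was 0.89, and 0.21 over all 10 members with a probe set, tested or not. Of the members set aside by the filter, PKP1, DSC3 and DSG3 had lower means with mir-429 and JUP a higher one. DSP, the plaque protein desmoplakin, read 8.92, 8.78 and 8.72 in control arrays and 10.26, 10.13 and 10.505 in mir-429 arrays (1.49 ± 0.14, adjusted p = 0.00179). The plakophilins PKP2 and PKP3, which link desmoplakin to the membrane, rose by 1.54 ± 0.27 and 1.89 ± 0.34. The other tested desmosome genes were at 0.30 ± 0.18 (DSC2), 0.13 ± 0.11 (DSG2) and 0.09 ± 0.11 (PERP) and did not pass the test; DSG2 was already at 12.43 to 12.59 in control arrays. PKP2 and PKP3 lost their calls without control replicate 3 or mir-429 replicate 2, and PKP2 also without mir-429 replicate 1.

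Tight junction and polarity genes had 4 of 9 tested members higher (44.4%, against 4.05% of all genes tested) and none lower. Their median was 0.44, and 0.29 over all 15 members with a probe set, tested or not. TJP1, the scaffold ZO-1, read 11.50, 11.71 and 11.39 in control arrays and 12.47, 12.37 and 12.42 in mir-429 arrays (0.89 ± 0.13). The scaffold PATJ rose by 1.41 ± 0.21, cingulin (CGN), which ties tight junctions to the cytoskeleton, by 1.25 ± 0.16, and the polarity protein PARD6B by 1.19 ± 0.15. The class V myosins MYO5C and MYO5B, which move recycling vesicles to the apical membrane, rose by 1.49 ± 0.18 and 1.28 ± 0.24. KRT7, a keratin of simple epithelia, read 10.38, 9.78 and 10.45 in control arrays and 11.22, 11.04 and 11.13 in mir-429 arrays (0.93 ± 0.19, adjusted p = 0.0292), and KRT18 and KRT8 were at 0.71 ± 0.20 and 0.90 ± 0.29 without passing the test. The KRT7 call was lost without control replicate 1 or any 1 mir-429 array, and that of MYO5B without control replicate 3 or mir-429 replicate 1 or 3.

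Neither of the 2 tested members of the adherens junction group passed the test. E-cadherin (CDH1) lay at 2.62 to 3.36 in control and 2.41 to 3.08 in mir-429 arrays, below the median of every array, and EPCAM at 1.55 to 2.54 and 2.22 to 3.07. CDH3 and NECTIN1, the tested members, were at -0.36 ± 0.22 and -0.06 ± 0.23. The epithelial transcription factors GRHL2, OVOL1 and OVOL2 also lay below the median of every array and were not tested. EPPK1, a plakin that binds keratin, read 6.53, 6.46 and 6.42 in control arrays and 4.91, 4.52 and 4.56 in mir-429 arrays (-1.80 ± 0.14, adjusted p = 0.00103), and SH3YL1, a phosphoinositide-binding protein of membrane ruffles, fell by 2.20 ± 0.20. Between 11 and 14 epithelial genes were called higher when 1 array was left out, and 7 with the 3′ minus 5′ covariate, while 2 were lower in each case. TJP1, PARD6B, CDS1, PKP2, PKP3, KRT7 and MYO5B lost their calls with that covariate.

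Because ZEB proteins bind E-boxes, the promoters of the 14 epithelial genes that rose were read for the letters CACCTG and CAGGTG, which are the same site on opposite strands. RefSeq promoters (GRCh38.p14, 250 bases before to 50 after the gene start, 300 bases, 5′ to 3′ on the gene's strand) were matched for 8 of them, and SPINT2, ESRP1, PKP3, PKP2, PARD6B and KRT7 were not matched. Of the 8 promoters 7 held the motif (87.5%), against 15 of 27 epithelial genes tested (55.6%), 1772 of 9846 of all genes tested (18.0%) and 5625 of 27305 promoters in the table (20.6%). The motif was in 95 of 393 promoters of higher genes (24.2%) and in 74 of 444 of lower genes (16.7%). The 27 include the 8, which were picked by their rise in these data from a list chosen with earlier results known. The shares were not tested. A match is a description of the letters in this window and shows no binding. The 3 promoters shown are those of CDS1 and MAP7, which had the largest rises among the 8, and of the desmosome gene DSP; capitals mark the motif.
CDS1, chr4:84582877-84583176, plus strand: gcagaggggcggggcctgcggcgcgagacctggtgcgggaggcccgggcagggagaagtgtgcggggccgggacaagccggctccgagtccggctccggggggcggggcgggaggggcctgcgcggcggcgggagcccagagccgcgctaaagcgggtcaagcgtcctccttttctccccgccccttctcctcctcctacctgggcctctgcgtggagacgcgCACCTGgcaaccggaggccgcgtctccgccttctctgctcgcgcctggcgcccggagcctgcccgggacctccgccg
MAP7, chr6:136550373-136550672, minus strand: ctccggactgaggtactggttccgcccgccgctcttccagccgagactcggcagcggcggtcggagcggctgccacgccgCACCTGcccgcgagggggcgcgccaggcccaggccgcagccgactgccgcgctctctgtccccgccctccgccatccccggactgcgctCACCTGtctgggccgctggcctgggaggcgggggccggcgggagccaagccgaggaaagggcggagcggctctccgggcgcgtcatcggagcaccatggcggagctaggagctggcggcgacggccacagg
DSP, chr6:7541421-7541720, plus strand: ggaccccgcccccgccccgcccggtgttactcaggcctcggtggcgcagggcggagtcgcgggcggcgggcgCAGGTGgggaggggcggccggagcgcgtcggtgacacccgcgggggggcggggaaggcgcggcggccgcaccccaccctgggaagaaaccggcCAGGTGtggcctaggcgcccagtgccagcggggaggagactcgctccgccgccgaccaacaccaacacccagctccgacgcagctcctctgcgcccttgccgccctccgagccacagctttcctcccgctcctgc

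The motif starts 27 bases before the gene start in CDS1, 170 and 81 bases before it in MAP7, and 178 and 85 bases before it in DSP.

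Of 59 tested mesenchymal and matrix genes, 9 were lower (15.3%) and 5 higher (8.47%), against 4.73% and 4.05% of all genes tested. The median was -0.15. When 1 array was left out 5 to 7 were called lower and 5 to 6 higher, and with the 3′ minus 5′ covariate 3 and 3. MMP1, FAP, TIMP2, COL1A1, COL5A2, TCF4, LOXL2 and VCAN lost their calls with that covariate. Besides LOX, FN1 and TIMP2, the tenascin TNC read 10.26, 10.17 and 10.28 in control arrays and 9.04, 8.99 and 9.23 in mir-429 arrays (-1.15 ± 0.12, adjusted p = 0.00283). The collagenase MMP1 read 6.74, 6.70 and 7.17 in control arrays and 4.86, 5.07 and 4.21 in mir-429 arrays (-2.16 ± 0.24, adjusted p = 0.00357). The surface protease FAP fell by 1.35 ± 0.19, and the collagen genes COL1A1 and COL5A2 by 0.80 ± 0.19 and 0.61 ± 0.11. FAP and COL1A1 also are the 2 of 5 tested fibroblast markers that fell; the summed level of the 12 fibroblast markers (log2 of their linear sum) was 10.94 to 11.28 in control and 10.73 to 10.96 in mir-429 arrays, and their part in these falls was not tested.

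Other matrix genes went up. COL8A1, a short-chain collagen, read 3.26, 3.25 and 2.74 in control arrays and 6.71, 6.21 and 6.16 in mir-429 arrays, at least 2.18 higher with the control arrays raised to their median. The lysyl oxidase relatives LOXL3 and LOXL2 rose by 1.39 ± 0.16 and 0.71 ± 0.11. The LOXL2 call was lost with the 3′ minus 5′ covariate and with the mean of its probe sets, which was at 0.055. The matrix proteins EFEMP1 (fibulin-3) and VCAN (versican) rose by 1.03 ± 0.12 and 0.97 ± 0.13. Vimentin (VIM), the mesenchymal intermediate filament, read 13.10, 13.22 and 13.37 in control arrays and 13.38, 13.12 and 13.12 in mir-429 arrays (-0.02 ± 0.14, adjusted p = 0.945). N-cadherin (CDH2) read 12.07, 12.18 and 12.08 in control arrays and 12.16, 12.21 and 12.12 in mir-429 arrays (0.05 ± 0.11, adjusted p = 0.824). The arms overlapped for both, as the scatter of differences against expression shows at its bright end. Of the EMT transcription factors tested beside TCF4, TWIST1 was at 0.03 ± 0.11, SNAI2 at 0.12 ± 0.12 and TWIST2 at -0.23 ± 0.13. COL1A1 and COL5A2 lost their calls without most single arrays.

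Of 66 tested genes of the actin machinery, 3 were higher and 3 lower (9.09% in all, near the 8.78% of all genes tested), with a median of -0.06. The lower ones were the targets WIPF1, CFL2 and MSN given above. ARPC4, a subunit of the branching ARP complex, read 8.90, 8.62 and 9.45 in control arrays and 10.27, 10.75 and 10.61 in mir-429 arrays (1.56 ± 0.23, adjusted p = 0.00939). The membrane linker radixin (RDX) rose by 0.72 ± 0.17, opposite to its relative moesin, and the cofilin kinase LIMK2 by 0.59 ± 0.14. None of 14 tested myosin and contraction genes passed the limma test, and 0 had an unadjusted p below 0.05. LIMK2 and RDX lost their calls without most single arrays, and ARPC4 with the 3′ minus 5′ covariate.

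Of 17 tested vesicle coat genes 1 rose and 1 fell (11.8% in all, near the 8.78% of all genes tested). The 2 are partners in the inner layer of the same coat. SEC24A, the cargo-binding partner of SEC23A, read 9.04, 8.97 and 8.85 in control arrays and 10.22, 10.32 and 10.18 in mir-429 arrays (1.29 ± 0.12, adjusted p = 0.00166). SEC23A fell by 1.23, as given above, and the arms did not overlap for either gene. The median of the list was 0.02, and the SEC23A call was lost with the 3′ minus 5′ covariate.

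Inflammatory genes had the lowest median of the lists with more than 10 tested members, -0.46 over 38 genes, with 15 lower (39.5%, against 4.73% of all genes tested) and 1 higher. Of 5 tested chemokines 4 fell, all of them CXC ligands that attract neutrophils. CXCL8 read 11.31, 11.64 and 11.36 in control arrays and 8.26, 8.39 and 8.26 in mir-429 arrays (-3.13 ± 0.13, adjusted p = 0.00013). CXCL3 read 9.22, 9.40 and 9.16 in control arrays and 6.42, 6.33 and 6.62 in mir-429 arrays (-2.80 ± 0.13). CXCL1 read 11.54, 11.67 and 11.51 in control arrays and 9.08, 9.14 and 9.38 in mir-429 arrays (-2.37 ± 0.13). These 3 genes had tight replicates in both arms. CXCL2 read 10.38, 10.19 and 10.35 in control arrays and 7.76, 8.18 and 8.62 in mir-429 arrays (-2.12 ± 0.22), with a wider spread under mir-429. CCL20, the chemokine that did not pass the test, was at -0.27 ± 0.22.

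The cytokines IL6 and IL1B read 7.96, 8.53 and 8.44 and 7.93, 8.22 and 8.24 in control arrays. In mir-429 arrays IL6 read 6.73, 6.64 and 6.82 (-1.58 ± 0.17) and IL1B read 6.73, 6.36 and 6.81 (-1.50 ± 0.16). The macrophage growth factor CSF1 fell by 1.27 ± 0.18 and the TNF family ligand TNFSF15 by 1.21 ± 0.23. Among NF-kB regulators the inhibitors NFKBIA (-0.86 ± 0.13) and NFKBIE (-0.96 ± 0.20) and the nuclear cofactor NFKBIZ (-0.53 ± 0.12) fell, and the receptor adaptor TRAF1 did so too, at -1.31 or lower.

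Of the NF-kB target genes tested, BCL2A1, an inhibitor of apoptosis, read 8.86, 9.56 and 9.22 in control arrays and 7.48, 7.24 and 7.40 in mir-429 arrays (-1.84 ± 0.19, adjusted p = 0.00277). Complement C3 fell by 1.25 ± 0.25, and TNFAIP8 rose by 0.78 ± 0.12. SOD2 (0.35 ± 0.12), PTX3 (0.18 ± 0.13) and ICAM1 (0.47 ± 0.32) did not pass the test. Between 11 and 14 inflammatory genes were called lower when 1 array was left out, and 4 with the 3′ minus 5′ covariate; TNFSF15, NFKBIE, NFKBIZ and C3 lost their calls without several single arrays.

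**Figure D3:**
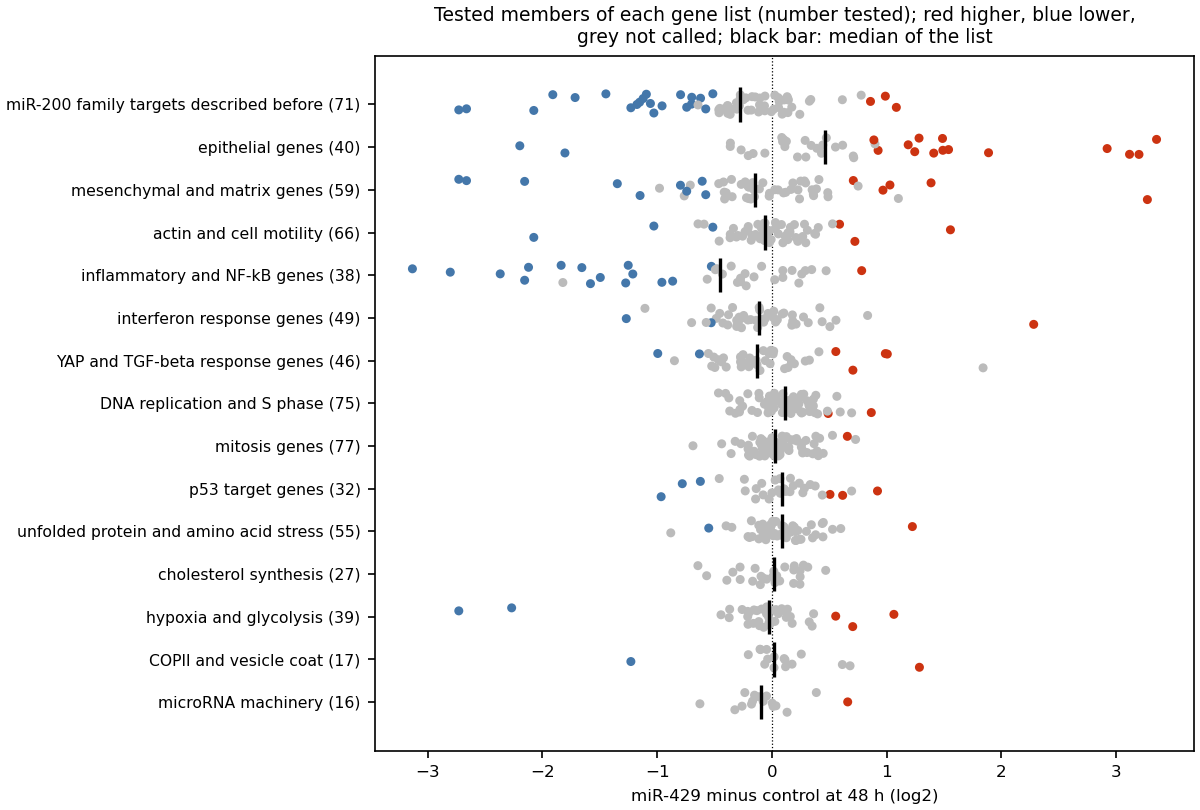
Difference between mir-429 and control arrays at 48 h (log2, horizontal axis) for each tested member of 15 gene lists, 1 point per gene; red points are called higher, blue points lower and grey points not called, and the black bar is the median of the list. The epithelial list has its median at 0.46 and most of its called members to the right, the miR-200 targets and the inflammatory genes have medians of -0.27 and -0.46 and most called members to the left, and the other medians lie between -0.15 and 0.12.

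Untransfected cells give a second reference for these genes. These comparisons share the 48 h arrays with the one above, and the untransfected arrays had far more 5′ signal of GAPDH and ACTB. CXCL8 read 9.23, 9.54 and 9.45 in untransfected cells, between the 2 arms at 48 h. The control arm was 2.03 above the untransfected mean of 9.41, and the mir-429 arm was at -1.11 against it. CXCL3 and CXCL2 lay the same way, with untransfected means of 7.61 and 9.25, while CXCL1 was at 9.61, 1.96 below the control arm and within 0.41 of the mir-429 arm (-0.41). BCL2A1 was at 9.76 in untransfected cells, with the control arm at -0.55 and the mir-429 arm at -2.39 against it.

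In several genes higher with mir-429, the control arm was the group that lay apart. The fatty acid elongase ELOVL7 had means of 6.27 in untransfected, 4.54 in control and 7.17 in mir-429 cells. SPOPL, an adaptor of a ubiquitin ligase, was at 8.12, 6.11 and 8.54 in the same order. ARPC4 was at 11.30, 8.99 and 10.54, DDIT4, an inhibitor of the kinase complex mTORC1, at 9.45, 7.95 and 9.17, and KRT7 at 11.07, 10.20 and 11.13. In these 5 genes the control arm was the group farthest from untransfected cells. ESRP1, at 6.35 in untransfected cells, lay 1.81 lower there than with mir-429. DSP was at 8.67 in untransfected cells, close to the control arm, and SPINT2 was at 5.13. ZEB1, at 11.02 in untransfected cells, was within 0.07 of the control arm (-0.07), and OSTM1, at 10.21, within 0.02.

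**Figure D4:**
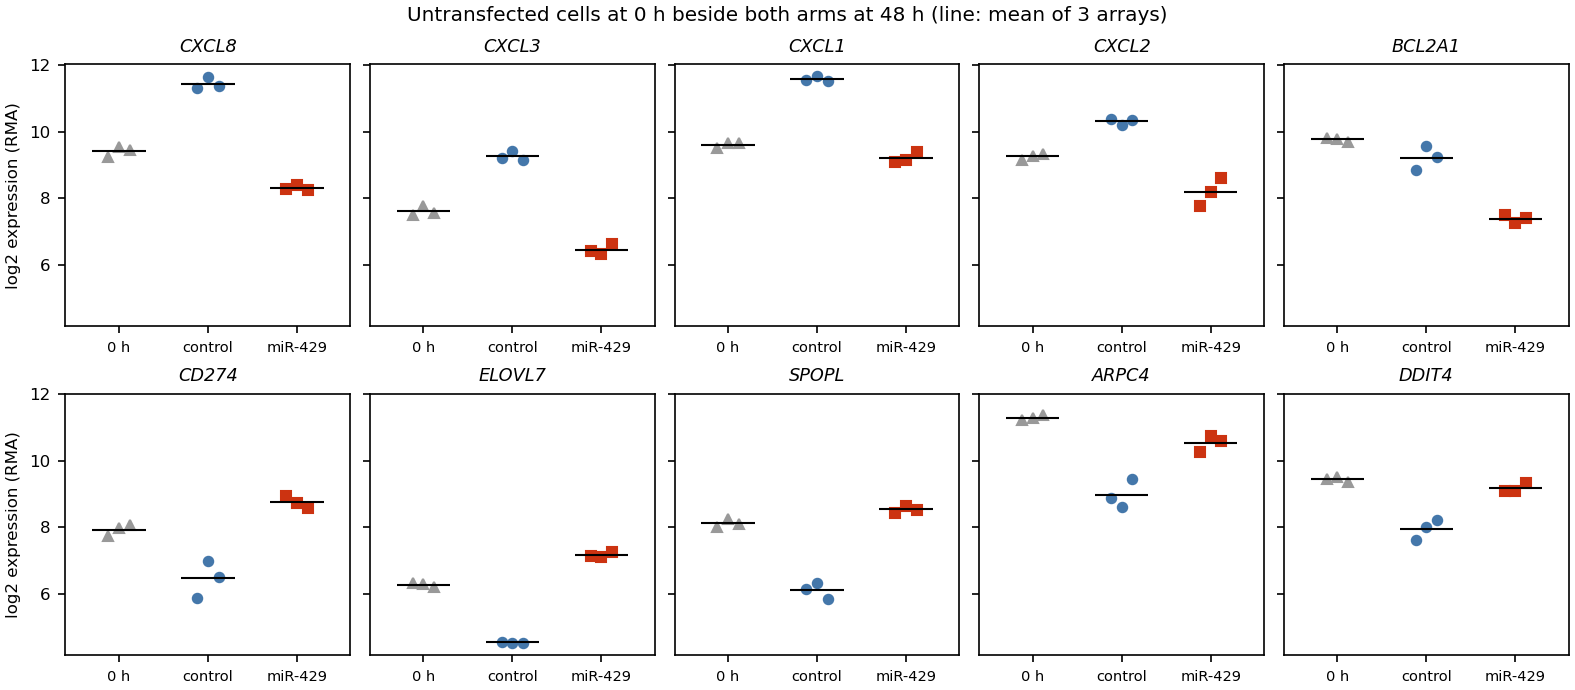
Log2 expression of 10 genes, picked after their values were seen, on 3 arrays each of untransfected cells at 0 h (triangles), control cells at 48 h (circles) and mir-429 cells at 48 h (squares); the line is the mean of 3 arrays. CXCL8, CXCL3, CXCL2 have the untransfected arrays between the 2 arms, while ELOVL7, SPOPL, CD274, ARPC4 and DDIT4 have the control arm below both other groups.

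Of 49 tested interferon response genes 1 was higher and 2 lower (6.12% in all, against 8.78% of all genes tested), with a median of -0.11. The 1 rise was in CD274, which encodes the checkpoint ligand PD-L1. It read 5.89, 6.997 and 6.52 in control arrays and 8.94, 8.73 and 8.59 in mir-429 arrays (2.28 ± 0.27, adjusted p = 0.00408), and its mean in untransfected cells was 7.93. The antiviral effector SAMD9L fell by 1.27 ± 0.19 and the DNA sensor IFI16 by 0.53 ± 0.13. None of the 7 tested sensors and factors passed the limma test (1 had an unadjusted p below 0.05), among them IRF1 (-0.18 ± 0.23), IRF9 (-0.06 ± 0.32), IFIH1 (0.32 ± 0.25) and RIGI (-0.43 ± 0.12). The IFI16 call was lost without any 1 of the 6 arrays.

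Of 75 tested DNA replication genes 2 were higher (2.67%, against 4.05% of all genes tested) and none lower (median 0.12). They were the helicase subunit MCM4 (0.49 ± 0.12) and the atypical E2F factor E2F8 (0.87 ± 0.15). Of 77 mitosis genes 1 was higher (1.3%), SGO1, which protects centromere cohesion (0.66 ± 0.13, median of the list 0.03). MCM4 lost its call whichever single array was left out, and SGO1 without most single arrays. E2F8 lost its call without control replicate 1 or mir-429 replicate 2 or 3. Of 32 p53 target genes 3 rose and 3 fell (18.8% in all, against 8.78% of all genes tested). The rises were in the cytokine GDF15 (0.62 ± 0.12), the ceramidase ACER2 (0.92 ± 0.20) and the death receptor TNFRSF10A (0.51 ± 0.11), and the falls in CCNG2, a cyclin G (-0.97 ± 0.16), the stress sensor SESN1 (-0.78 ± 0.14) and the BH3-only protein PMAIP1 (-0.62 ± 0.14). Most of these calls were lost when 1 array was left out: p53 targets went to between 0 and 2 higher and 0 and 2 lower.

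Of 46 tested YAP and TGF-beta response genes 4 rose and 2 fell (13% in all, against 8.78% of all genes tested; median -0.13). Besides TGFB2, the rises were in PMEPA1, which dampens TGF-beta signalling (1.01 ± 0.14), the growth factor binding protein IGFBP3 (0.71 ± 0.12) and the matricellular protein CCN2 (0.56 ± 0.14). The falls were in RBMS3, an RNA-binding protein (-0.99 ± 0.13), and GADD45B, a stress response gene (-0.63 ± 0.12). IGFBP3, CCN2 and GADD45B lost their calls without 2 or more of the single arrays. In the hypoxia and glycolysis list of 39 (12.8% called), EPAS1, a hypoxia-inducible factor subunit (1.06 ± 0.14), and the glucose transporter SLC2A1 (0.56 ± 0.12) rose, while LOX and heme oxygenase HMOX1 fell. Hexokinase HK2 is counted as higher by its chosen probe set (0.71 ± 0.13), but its other probe sets lay below 0. HMOX1 read 7.47, 6.53 and 7.59 in control arrays and 5.29, 4.86 and 4.63 in mir-429 arrays (-2.27 ± 0.30, adjusted p = 0.00636). Of 55 stress response genes DDIT4 rose by 1.23 ± 0.17 and CEBPB, a bZIP factor, fell by 0.55 ± 0.13. HK2, SLC2A1 and CEBPB lost their calls without 2 or more of the single arrays, and EPAS1 and HMOX1 with the 3′ minus 5′ covariate.

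Of 27 tested cholesterol synthesis genes none passed the limma test, and 3 had an unadjusted p below 0.05 (median 0.02). Of 16 microRNA machinery genes 1 did, TNRC6B, a scaffold of the silencing complex (0.66 ± 0.14; median -0.09), and it lost its call without most single arrays.

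Most called genes, 964 of 1058, were in none of the lists. ZBED2, a zinc finger factor gene, read 3.04, 1.56 and 2.84 in control arrays and 7.59, 7.87 and 7.75 in mir-429 arrays, at least 3.55 higher. ZNF165, another zinc finger gene, was at least 2.63 higher, the protease inhibitor CST6 at least 1.99 and the sialyltransferase ST6GALNAC5 at least 0.91, each by its chosen probe set. The other CST6 probe set was at 0.47 ± 0.20 and did not pass the test (adjusted p = 0.216). Each of these 4 had a control mean below the array medians. ELOVL7 read 4.57, 4.52 and 4.54 in control arrays and 7.15, 7.11 and 7.26 in mir-429 arrays (2.63 ± 0.11), and SPOPL rose by 2.43 ± 0.16. The membrane protein TMEM200A rose by 2.28 ± 0.14, EXPH5, an effector of the vesicle GTPase RAB27, by 2.16 ± 0.16, and the photoreceptor disc gene PRCD by 2.06 ± 0.18.

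OSTM1, the partner of a lysosomal chloride exchanger, read 10.18, 10.35 and 10.18 in control arrays and 7.48, 7.53 and 7.37 in mir-429 arrays (-2.78 ± 0.12, adjusted p = 0.00013). Every mir-429 array of OSTM1 lay more than 2 log2 units below every control array. ANK3, which anchors membrane proteins to spectrin, fell by 2.16 ± 0.17 and the potassium channel domain gene KCTD4 by 2.30 ± 0.25. VNN1, a pantetheinase, was at least 1.98 lower (-1.98 as a bound), the myelin gene MOBP at least 1.39 (-1.39) and CD93, an endothelial lectin receptor, at least 1.02 (-1.02). CD93 was the 1 of 12 tested endothelial markers that fell; the summed level of the 19 endothelial markers was 12.48 to 12.74 in control and 12.49 to 12.67 in mir-429 arrays, and VWF, EMCN, ERG, CD34 and MMRN1 lay below every array median.

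Since the 5′ signal of GAPDH and ACTB was low on all 6 arrays, the genes with several probe sets were read probe set by probe set. Of 23060 probe sets tested, 636 were higher (2.76%) and 738 lower (3.20%), 1374 in all (5.96%). Of the called genes 601 had 2 or more tested probe sets, and in 469 of them (78.0%) all lay on the same side of 0. Their 1033 other probe sets had the sign of the chosen one in 858 cases (83.1%); 243 were called the same way and 5 the opposite way.

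The ZEB1 probe sets were at -1.72, -1.54 and -1.36, and those of ZEB2 at -1.12, -0.61 and -0.51. In the limma test over probe sets the ZEB1 one at -1.36 did not pass (adjusted p = 0.0578). Nor did the ZEB2 ones at -0.61 and -0.51 (adjusted p = 0.348 and 0.167). FN1 had 4 bright probe sets between -2.63 and -2.76 and a dim one at -1.01. OSTM1 had 4 between -2.41 and -2.78, CDS1 3 between 2.47 and 3.65, and ESRP1 2 at 2.92 and 2.68. In these 6 genes all tested probe sets lay on the same side. The WIPF1 probe sets ran from -2.08 to -0.20 and those of CFL2 from -1.91 to -1.03, so that the size depended on the probe set. All lay below 0, but the arms of the WIPF1 probe set at -0.20 ± 0.35 overlapped, and it gives no sign by itself. SEC24A was at 1.29 in the chosen probe set and at 0.36 and 0.42 in the others, which did not pass the test.

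The size of many changes depended on the probe set. Of 101 called genes named here that could be compared, 39 moved by over 1.5 times when all probe sets of a gene were averaged, dim ones included. Of these 19 kept their call, among them WIPF1 (-0.97), CRTAP (-0.94), ZEB2 (-0.52), CXCL2 (-1.35), ANK3 (-1.41), EPPK1 (-0.72), SH3YL1 (-1.09), MAP7 (1.98), PKP2 (0.95), PKP3 (0.98), SEC24A (0.69), ARPC4 (1.03) and PRCD (1.03). The other 20 lost it, namely MSN, LIMK2, TGFB2, MCM4, SGO1, GDF15, TNFRSF10A, EPAS1, HK2, COL1A1, KRT7, TIMP2, PTPRD, IRS1, PLCG1, HMGB3, LOXL2, TNFSF15, NFKBIA and FARP1.

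QKI, an RNA-binding protein that directs splicing and circular RNA formation, shows the widest spread among the genes always named. The probe set that stands for the gene read 11.66, 11.72 and 11.33 in control arrays and 11.15, 11.05 and 11.16 in mir-429 arrays (-0.45 ± 0.14, adjusted p = 0.0978), and did not pass the test. All 9 QKI probe sets lay below 0, from -0.14 to -3.40. The one at -3.40 read 10.15, 10.24 and 10.16 in control arrays and 6.83, 6.57 and 6.94 in mir-429 arrays, and thus changed far more than the brightest one. No transcript map was used here, so which QKI isoform each probe set reads is not given.

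Only 3 genes had probe sets called both ways, which were named after their values were seen: HK2, AP1S2 and FARP1. HK2 was at 0.71 in the chosen probe set and at -0.70 and -0.83 in the others. AP1S2 was at -1.45, -1.32 and -1.02 in 3 probe sets and at 1.40 in another. FARP1, a guanine nucleotide exchange factor, was at -0.58 and -1.07 in 2 probe sets and at 1.33 in 2 others. For these 3 genes the direction of the whole messenger cannot be given from the arrays.

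**Figure D5:**
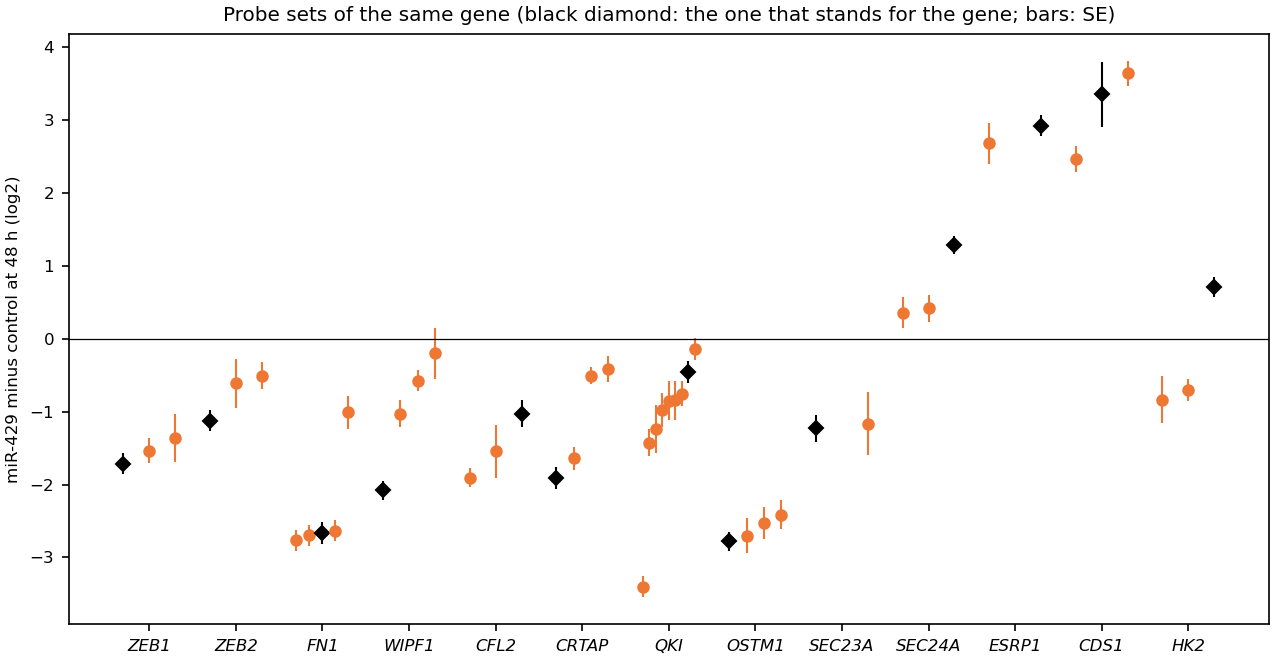
Difference between mir-429 and control arrays at 48 h (log2) for each tested probe set of 13 genes; the black diamond is the probe set that stands for the gene, the circles are the others, and bars are standard errors. All probe sets of ZEB1, ZEB2, FN1, OSTM1 and QKI lie below 0 and all of ESRP1 and CDS1 above it, while those of HK2 lie on both sides, at 0.71, -0.70 and -0.83.

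Probe sets that had lost signal at 48 h against untransfected cells were set against those that had not. The probe sets bright in untransfected cells were put into 4 groups of equal size, ordered from the deepest loss, and the median difference between the arms was -0.017, -0.0089, -0.00010 and 0.036. The median lay near 0 in each group, and highest in the probe sets that had gained signal. The SD of the difference was 0.49, 0.41, 0.38 and 0.40 in the same order, widest at the deepest loss. Medians of RMA values over whole groups cannot show whether lost signal altered single genes, and this was not tested.

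The 48 h effect was last set beside that at 24 and 144 h, whose arrays are separate samples. The 488 genes higher at 48 h had a median effect of 0.65 at 24 h, with 90.2% of them above 0, and of 0.05 at 144 h, with 57.2% above 0. The 570 lower genes had medians of -0.47 at 24 h (86.8% below 0) and -0.21 at 144 h (78.2%). At 48 h the medians were 0.83 and -0.86, but the genes were picked by their effect there, which favours larger values at that time. The shares of all genes tested above or below 0 at 24 and 144 h are not given here. The effect differed between 48 and 24 h for 704 genes (5.84%), 261 upward (2.17%) and 443 downward (3.68%), and between 48 and 144 h for 1234 genes (10.2%), 742 upward (6.16%) and 492 downward (4.08%).

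The targets named here were nearer to 0 at 144 h. ZEB1 was at -1.29 at 24 h, -1.72 at 48 h and -0.14 at 144 h, FN1 at -1.70, -2.66 and -0.12, and WIPF1 at -2.13, -2.08 and -0.17. SEC23A (-0.98, -1.23 and 0.03) and SEC24A (1.52, 1.29 and -0.04) kept opposite signs at 24 and 48 h. The epithelial gene ESRP1 was at 0.93, 2.92 and 0.89, and SPINT2 at 1.38, 3.20 and 0.87. CXCL8 was at -1.14, -3.13 and 0.28.

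MMP1 reversed, with -1.30 at 24 h, -2.16 at 48 h and 2.08 at 144 h. Its 144 h arrays read 6.70, 6.70 and 6.39 in control and 8.84, 8.58 and 8.63 in mir-429 cells, so that the arms were apart in the opposite direction. The 5′ signal of GAPDH and ACTB was low at 48 h in both arms and at no other time, so time and array quality cannot be told apart in these differences. With the 3′ minus 5′ signal as a covariate, 3 genes differed between 48 and 24 h (TMEM200A, ESRP1 and ANK3) and 812 between 48 and 144 h.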

How the data were processed

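The expression arrays were hybridised with HEY cell RNA copied from its 3′ end and tagged with biotin, per the labels' protocols. The deposited values are log2 expression per probe set, made by the authors with RMA, per the submitters' processing notes; no version is given in the sources used here. No further scaling was applied. Of 54675 probe sets, 41097 had 1 gene symbol in GEO's platform annotation, 1801 several and 11777 none; Entrez identifiers gave current symbols from RefSeq's GRCh38.p14 gene table (99.9% matched).

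A gene was represented by its probe set with the highest mean over the 6 arrays (19775 genes) and tested where that probe set passed the array median on 3 or more of them (12050 genes; 7725 set aside). limma 3.58.1 in R 4.3.3 (lmFit, eBayes) was fitted to the 6 arrays alone, leaving 4 residual degrees of freedom (prior 3.37). All tests are two-sided, with Benjamini-Hochberg adjustment over all genes tested and a threshold of 0.05. Differences between times came from 1 fit to all 7 groups. Where a group's mean lay below its array medians, its arrays were raised to the median and the difference is written as "at least". The number of arrays limits the precision. Within an arm, the difference between a pair of arrays had an SD over genes of 0.37 to 0.45 for control and 0.31 to 0.34 for mir-429.

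The 19 gene lists, the members and the rule for named genes were chosen with earlier results of these data known, and no list was tested as a set. The text names the 15 genes that rose most and the 15 that fell most with arms that did not overlap, up to 5 members of each list with the smallest p, tested members of small role groups, and 19 genes always named; other called list members were added after their values were seen. On simulated data for this comparison over 12050 genes 7.46% of the 67 genes given a log2 change of 0.5 were recovered, 49.3% of the 67 given 1 and 93.9% of the 66 given 2. The noise was normal and no other gene was changed, a smaller share than the 8.78% called in the data. Recovery under this adjustment depends on that share, so the rates do not carry over directly. Alternatives were other scalings, probe set choices, filters, fits and covariates, and leaving out each array. The 3′ minus 5′ covariate is the mean over GAPDH and ACTB; the array's other control transcript and 1 role group of the actin list are not reported here.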

Additional observations from a re-analysis of the deposited data

Results flagged for a closer look

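The effect of mir-429 at 48 h differed from that at 24 h in 5 of the named genes examined, by the limma test of the difference itself with all 7 groups in the fit. The difference (48 h effect minus 24 h effect) was 1.99 for ESRP1 (adjusted p = 2.35e-05) and 1.82 for SPINT2 (adjusted p = 0.00463), epithelial genes with a larger rise at 48 h. It was -1.995 for the chemokine gene CXCL8 (adjusted p = 6.51e-05) and -0.96 for FN1 (adjusted p = 0.00471), which fell further. It was 1.29 for GDF15 (adjusted p = 0.00377), which was at -0.68 at 24 h and 0.62 at 48 h. GDF15 was added to the genes examined after its values were seen. ESRP1 kept its call in all 16 alternatives, while SPINT2, CXCL8, FN1 and GDF15 lost theirs with the 3′ minus 5′ covariate. The means of that signal differed between the arms in opposite directions at 24 and 48 h, as given above.

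The effect at 48 h differed from that at 144 h in 18 of the named genes examined, by the same test. Among the targets the difference was -1.57 for ZEB1, -2.55 for FN1, -1.91 for WIPF1, -2.35 for LOX, -1.26 for SEC23A and -0.81 for CFL2 (adjusted p = 0.0272), each lower at 48 h. Among the epithelial genes it was 2.04 for ESRP1, 2.33 for SPINT2 and 2.09 for MAP7. It was 1.32 for the coat gene SEC24A and 1.96 for the checkpoint ligand gene CD274, and -3.42 for CXCL8 and -1.63 for HMOX1. CFL2 lost its call in 9 of 16 alternatives, among them without control 48 h replicate 2 and mir-429 48 h replicates 2 and 3; the other 17 differences kept theirs.

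In 8 of these 18 genes the effect had opposite signs at the 2 times, with CXCL8, SEC23A and SEC24A at 0.28, 0.03 and -0.04 at 144 h. The others, MMP1, TGFB2, IGFBP3, E2F8 and SGO1, were added to the genes examined after their opposite signs were seen. The count of 8 therefore reflects that choice and is no rate of reversal. Among the genes examined MMP1 had the largest difference, -4.24, and was higher with mir-429 at 144 h (2.08). TGFB2 (1.82), IGFBP3 (1.75), E2F8 (1.43) and SGO1 (1.58) were higher with mir-429 at 48 h and at -0.83, -1.05, -0.56 and -0.92 at 144 h.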

How the results depend on the processing

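Of 109 called genes that the text names, 37 kept their call in all 17 alternatives, 72 lost it in at least 1, 25 of them with the 3′ minus 5′ covariate alone, and 42 lost it without some single array. HK2 and FARP1 reversed with the mean of all probe sets, to -0.28 and 0.27. The cause of the changes below was not tested.

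With all 7 groups in 1 fit, 2533 genes were called (1180 higher, 1353 lower; 1029 of the 1058 were among them) and 4142 probe sets (1931 and 2211). Without the filter the counts were 458 genes (218 and 240), 513 probe sets (251 and 262) and 257 genes for 48 against 24 h, and the epithelial and inflammatory medians 0.20 and -0.24. With the 3′ minus 5′ covariate 157 genes were called (87 higher, 70 lower), 3 for 48 against 24 h and 812 for 48 against 144 h, and the higher share went from 46.1% to 55.4%. The medians were then 0.55 (epithelial), -0.058 (mesenchymal), -0.016 (actin), -0.33 (inflammatory), -0.046 (YAP and TGF-beta), 0.073 (mitosis), 0.15 (cholesterol), 0.093 (vesicle coat), 0.055 (microRNA machinery) and -0.51 (fibroblast markers). With the mean of probe sets they were 0.38 (epithelial), -0.083 (mesenchymal), -0.30 (inflammatory), 0.079 (mitosis), 0.046 (stress response) and -0.017 (microRNA machinery), and 732 genes were called. The stress response median was 0.046 also with the probe set brightest over all arrays, and the mitosis median 0.0024 after quantile scaling.

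The labels do not say whether replicate numbers pair the arms. Correlations of deviations between arrays of 1 number were weak, at -0.14, -0.08 and 0.11. With the replicate numbers as a block 602 genes were called (272 higher and 330 lower, with 568 of the 1058 among them). The count was then 676 for 48 against 24 h and 1159 for 48 against 144 h.

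When 1 array was left out, 415 to 902 genes were called, 182 to 416 higher and 221 to 486 lower. The count was 631, 902 and 577 without control replicates 1, 2 and 3, and 455, 415 and 417 without mir-429 replicates 1, 2 and 3, with fewer arrays in each fit. It was 190 to 2149 for 48 against 24 h, with 204 and 2149 without control 24 h replicates 3 and 2 and 190 without mir-429 24 h replicate 1, and 828 to 1454 for 48 against 144 h. The medians ranged from -0.13 to -0.016 (mesenchymal), -0.059 to -0.0044 (actin), -0.55 to -0.37 (inflammatory), -5.06e-05 to 0.054 (mitosis), 0.043 to 0.11 (stress response), -0.055 to 0.039 (hypoxia), 0.024 to 0.11 (vesicle coat), -0.056 to 0.32 (leukocyte markers) and -0.42 to -0.14 (fibroblast markers).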
